A study of Drosophila melanogaster with 2 samples.

Results

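Of 2610 reproducible CG11085-eGFP peaks on the 6 chromosome arms, 643 had their summit 1 to 500 bp upstream of a protein-coding gene that does not share its promoter region with a protein-coding gene facing the other way. These unidirectional upstream peaks were chosen by position alone. The start site (TSS) nearest to the summit had to lie downstream of it in the gene's direction, and no protein-coding TSS on the opposite strand could lie within 1 kb upstream of that TSS. Another 527 upstream peaks met the distance but faced such an opposite TSS (divergent promoters), 201 summits lay at a TSS or up to 500 bp downstream of it, and 1239 lay over 500 bp from any of these TSSs. The data came from 1 group, embryos of 0 to 24 hours from transgenic flies of strain CG11085-GFP that express CG11085-eGFP fusion proteins, with 2 samples labelled as biological replicates. The sample descriptions give an antibody against GFP for the immunoprecipitation, whereas the antibody field of the labels names CG11085, and which of these holds was not settled here. The embryos were used as whole organisms, so all tissues and stages of embryogenesis are mixed. Control immunoprecipitations were not analysed here, so no background at the same sites can be given. The deposited peak lists were filtered by the irreproducible discovery rate (IDR), which measures how alike 2 ranked sets of regions are, and the conservative list over both replicates was used unless another is named. Each replicate also has a list of its own, which held 534 unidirectional upstream peaks of 2006 for replicate 1 and 436 of 1750 for replicate 2.

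CG11085 is a homeobox gene, and homeodomain proteins bind short DNA words, often with a TAAT core. A promoter gathers the transcription machinery at the TSS, and the DNA just upstream of an active TSS is commonly free of nucleosomes. At a divergent promoter the same open stretch serves a gene on each side, whereas a unidirectional promoter is bordered upstream by the end of another gene, by an intron or by intergenic DNA. Fly core promoters carry different sets of words. TATA boxes and initiators are typical of genes with focused and regulated transcription. The DNA replication-related element TATCGATA, bound by DREF, and the word CGATA, recognised by the boundary protein BEAF-32, are typical of genes active in most cells.

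The DNA under the strongest of these peaks is shown first, because runs of A and T are the feature that most of them share. Such runs were also found at most summits of the other groups of peaks. Each line gives 101 bases of the RefSeq copy of the dm6 assembly (BDGP6), 5' to 3' on the strand of the gene and centred on the summit, with uninterrupted runs of at least 8 A or T in capitals. They are the 4 peaks of highest signal that lie in no annotated UTR and on an arm from which sequence is printed. The first lies 96 bp upstream of CG14100 (chr3L:19590570-19590670, minus strand), the second 497 bp upstream of a TSS inside polyhomeotic proximal (ph-p, a subunit of the Polycomb repressive complex PRC1) in an intron of that gene (chrX:2137302-2137402, minus strand), the third 72 bp upstream of CG11857 (chr3R:25258776-25258876, plus strand) and the last 132 bp upstream of CG18549 (chr3R:12449114-12449214, plus strand).
CG14100: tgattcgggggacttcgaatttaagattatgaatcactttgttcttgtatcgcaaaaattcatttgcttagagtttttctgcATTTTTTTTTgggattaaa
ph-p: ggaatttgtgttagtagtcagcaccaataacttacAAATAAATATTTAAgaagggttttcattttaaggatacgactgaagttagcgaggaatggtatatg
CG11857: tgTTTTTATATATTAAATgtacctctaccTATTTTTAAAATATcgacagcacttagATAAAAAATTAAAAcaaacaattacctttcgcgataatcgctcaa
CG18549: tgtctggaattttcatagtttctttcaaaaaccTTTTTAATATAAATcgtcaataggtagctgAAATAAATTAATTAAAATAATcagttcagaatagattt
The longest such runs measured 10, 14, 16 and 21 bp in these windows. Their GC content was 30.7%, 32.7%, 25.7% and 22.8%, against 38.6%, 55.5%, 44.1% and 33.2% in the flanking windows of the same peaks. The window of CG14100 holds CGATA once, read on the opposite strand as tatcg. That of CG11857 holds TATAAA, read on the opposite strand as tttata. It also holds CGATA and GATAA, as well as the homeodomain word TAATTG. The window of CG18549 holds TATAAA and TCAGT, as well as the homeodomain word TAATTA. That of ph-p holds TCAGT.

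Summits closer to the TSS looked different, and the next windows show a word found more often there. It was at 46 of the 179 summits within 100 bp (25.7%). CGATAG, which contains the BEAF-32 core, was the 6-base word with a C or G that gained most at the summits, and it was chosen after its values were seen. Of the 3 strongest peaks with it within 100 bp of the TSS, again outside UTRs, 2 are shown. They lay at MEP-1, a zinc-finger gene (76 bp, chr3L:2635636-2635736, plus strand) and at dikar (70 bp, chr3L:6743184-6743284, minus strand). The strongest eligible window with the full DNA replication-related element lay 66 bp upstream of Rnp4F, which encodes an RNA-binding protein (chrX:5322712-5322812, minus strand). Capitals mark CGATAG on either strand in the first 2 lines and TATCGATA in the last.
MEP-1: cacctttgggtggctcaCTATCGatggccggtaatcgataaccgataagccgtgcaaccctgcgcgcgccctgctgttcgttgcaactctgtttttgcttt
dikar: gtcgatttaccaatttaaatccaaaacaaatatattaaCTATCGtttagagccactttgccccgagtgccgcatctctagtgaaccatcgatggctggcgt
Rnp4F: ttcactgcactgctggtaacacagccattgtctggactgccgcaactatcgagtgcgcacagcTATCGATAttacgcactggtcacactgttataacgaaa
The signals at these summits were 186, 149 and 135, and the GC contents of the windows were 54.5%, 42.6% and 48.5%. The Rnp4F window also holds ggtcacact, the core of promoter Motif 1, downstream of the element.

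Some strong peaks held none of the 17 words that were looked for, which was so of 122 of the 643. The 2 strongest eligible ones lay 205 bp upstream of amontillado (amon, a prohormone convertase; chr3R:26714314-26714414, minus strand) and 167 bp upstream of RluA-1 (chr2L:10474466-10474566, minus strand). Between them they show that strong signal came with and without long A/T runs, which are again in capitals.
amon: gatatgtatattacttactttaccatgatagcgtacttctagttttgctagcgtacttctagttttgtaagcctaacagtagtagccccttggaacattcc
RluA-1: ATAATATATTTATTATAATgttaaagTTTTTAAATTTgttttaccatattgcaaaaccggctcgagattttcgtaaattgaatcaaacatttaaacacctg
The amon window has no run of 8 or more A or T, its longest being 7 bp, and its GC content was 37.6% against 56.9% in its flanks. The RluA-1 window opens with a run of 19 bp and had a GC content of 23.8%. Their signals were 676 and 571. The strongest eligible window with GGTATTT, part of promoter Motif 6, lay 238 bp upstream of elav (chrX:523414-523514, minus strand), the gene of a neuronal RNA-binding protein, with a signal of 487.

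Regions at unidirectional upstream positions passed the IDR threshold more often than regions in general. The authors' ranked comparison of the replicates held 142665 regions on the arms, of which 1.83% are in the conservative list. At unidirectional upstream positions 643 of 6339 ranked regions passed, or 10.1% (95% Wilson interval 9.42 to 10.9, counting error only). At divergent upstream positions the share was 32.7% (30.5 to 35.1), downstream of a TSS it was 2.25% (1.97 to 2.58), and elsewhere 0.985% (0.932 to 1.04). The median signal of the regions that passed was 137 at unidirectional upstream positions, against 25.7 for those that did not. The threshold acts on ranked regions of the same reads, so this gap is no independent result.

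Counted by genes, 592 of the 9655 protein-coding genes with a unidirectional TSS held at least 1 of these peaks, or 6.13% (5.67 to 6.63). Each replicate's own list gave 504 (replicate 1) and 420 (replicate 2) genes. Most of the 592 genes, 545, held 1 peak, 47 held more, and none held over 3. The peaks were assigned to 611 distinct TSSs, of which 32 had more than 1 peak. In nearly all of these the weaker peak was no independent measurement, since 34 of the 643 peaks mapped to a region of a replicate that a stronger peak already used. At the ecdysone-induced transporter gene E23, for example, summits 198 and 405 bp upstream had pooled signals of 379 and 31.1 but the same replicate regions, whose signals were 201 (replicate 1) and 162 (replicate 2). CG31886, row, CG9471 and su(r) had pairs of the same kind. At fok, named after its values were seen, both peaks had regions of their own, with signals of 186 at 183 bp and 115 at 382 bp. A further 19 summits were equally close to TSSs of more than 1 gene, and 66 lay within 1 kb of the TSS of another protein-coding gene.

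Most summits lay in the first 200 bp upstream of the TSS. The median distance was 165 bp (quartiles 92 and 264.5 bp), with 154.5 bp in the replicate 1 list and 179.5 bp in the replicate 2 list. By stretches of 100 bp, 179 summits (27.8%) lay 1 to 100 bp upstream, 213 (33.1%) at 101 to 200 bp, 124 (19.3%) at 201 to 300 bp, 80 (12.4%) at 301 to 400 bp and 47 (7.31%) at 401 to 500 bp. At divergent promoters the median was 93 bp (quartiles 53.5 and 123.5 bp), and 58.8% of those summits lay within 100 bp. That difference is no result, since a summit between facing TSSs is assigned to the nearer one and cannot lie beyond the midpoint of their gap. The 2 replicates differed most next to the TSS, where the first 50 bp held 14.6% of the summits of the replicate 1 list and 7.80% of those of the replicate 2 list. At the edges of the selection, the innermost summits lay 1 bp upstream at elgi (signal 98.6) and 3 bp at CG2811 (360), while melt (26.6) and cyst (74.0) fell just outside, 1 and 2 bp downstream. The outermost lay 498 bp upstream at CG10479 (146) and 497 bp at ph-p (1343), and CG17896 (680) and CG34054 (85.1) fell outside at 501 bp. The opposite TSS was 984 bp away at Ance and 977 bp at Pax, which were left out, and 1015 bp at Eno and 1027 bp at CG9776, which were kept.

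**Figure D1:**
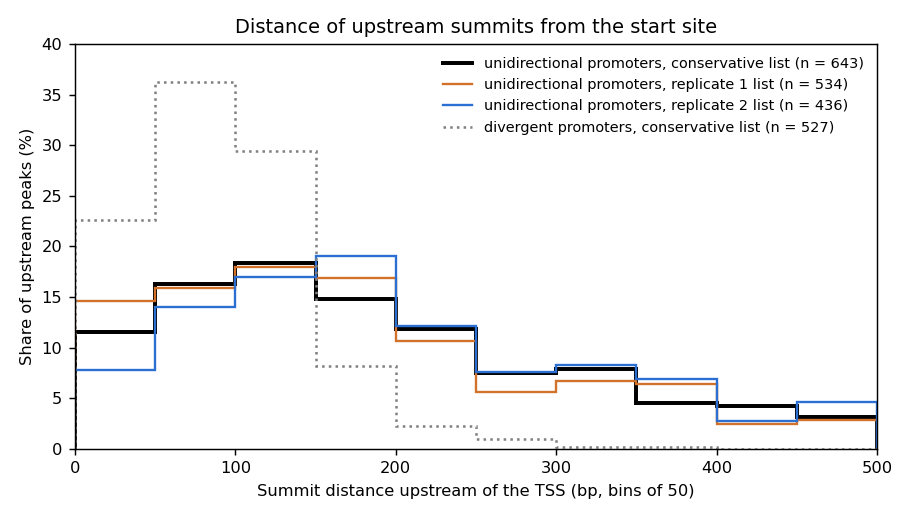
Share of upstream summits (y axis, percent) in bins of 50 bp by their distance upstream of the TSS (x axis), for unidirectional promoters in the conservative list (643 peaks) and in the list of each replicate (534 and 436 peaks), and for divergent promoters (527 peaks, dotted). The assignment to the nearer of facing TSSs limits the distances at divergent promoters, and among unidirectional promoters replicate 1 has a larger share in the first bin (14.6%) than replicate 2 (7.80%).

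Signal, the height the authors gave each peak on a scale that is not stated, ranged from 2.29 to 2118 over the 643 peaks, with a median of 137 and quartiles of 95.8 and 213. All other conservative peaks had a median of 121 (quartiles 90.7 and 177). Divergent upstream peaks had a median of 145, downstream peaks 125 and distant peaks 114. In the lists of the single replicates the medians were 96.1 against 87.9 for all others in replicate 1 and 67.5 against 63.9 in replicate 2. The quartile ranges overlapped in every case. Along the distance, the median was 119 within 100 bp, 159 at 101 to 200 bp, 148 at 201 to 300 bp and 120 beyond, so the highest typical signal did not sit at the TSS itself.

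The strongest peak, upstream of CG14100, had a signal of 2118 (replicate 1 1200.5, replicate 2 921). The ph-p peak followed with 1343 (759 and 610), and then the peak 110 bp upstream of eIF6, the gene of a factor in large ribosomal subunit assembly, with 1247 (783 and 476), which lies in an intron of ytr. Next came 2 summits inside annotated genes of arm 2R. One lay 121 bp upstream of a TSS in Fkbp14, a peptidyl-prolyl isomerase of the FK506-binding family, with 942 (599 and 356), and the other 211 bp upstream of a TSS in CG1888 with 801 (517 and 311). CG11857 had 782 (457 and 326) and CG18549 had 743 (486 and 262). In each of these 7 peaks replicate 1 was the higher of the pair.

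The other 13 of the 20 strongest peaks lay at genes of varied roles. Sox14, an HMG-box factor induced by ecdysone, had 729 (412 and 318, replicate 1 first) at 238 bp. Atf3, a basic leucine zipper factor, had 618 (342 and 281) at 208 bp. The wing vein gene plexus (px) had 721 at 213 bp, and musashi (msi), an RNA-binding protein of neural precursors, 605 at 201 bp. Rtnl1, a reticulon that shapes the membrane of the endoplasmic reticulum, had 684 at 260 bp, TRAM, part of the machinery that moves proteins into it, 673 at 91 bp, and Alg3, a mannosyltransferase of N-glycan synthesis, 650 at 61 bp. moody, a receptor of the glial blood-brain barrier, had 604.5 at 171 bp. The rest were MFS10 (703.5), amon (676), Tina-1 (649), CG1635 (631) and MFS18 (585). All 20 were higher in replicate 1 than in replicate 2, with ratios from 1.19 at MFS18 to 2.19 at CG1635.

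Replicate 1 was higher than replicate 2 at 588 of the 622 peaks that could be matched to a region in both, or 94.5%. The median ratio of replicate 1 to replicate 2 was 1.54 (quartiles 1.29 and 1.89), against 1.49 over all other conservative peaks. The median signals were 87.6 and 56.0. Across the 622 peaks the 2 samples had a Spearman correlation of 0.774 and a Pearson correlation of the log10 signals of 0.852. This is a description over peaks that share a control file and have a matched region among the ranked regions of each sample, whether or not they are in its own thresholded list. The ratio was larger close to the TSS, with a median of 1.73 within 100 bp and 1.51, 1.43 and 1.50 at 101 to 200, 201 to 300 and 301 to 500 bp. Read totals are not in these files, so a difference in depth was not tested. Distal-less (Dll), a homeobox gene of limb development, stood apart with 333 in replicate 1 and 38.5 in replicate 2, a ratio of 8.65. It was followed by aralar1 (4.91), Regnase-1 (4.56), CG6345 (4.18) and Toll-7 (3.76). The lowest ratios were 0.474 at CG10479 (50.1 and 106), 0.504 at rdx (57.0 and 113), 0.613 at magu, 0.638 at Doa and 0.657 at LPCAT.

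**Figure D2:**
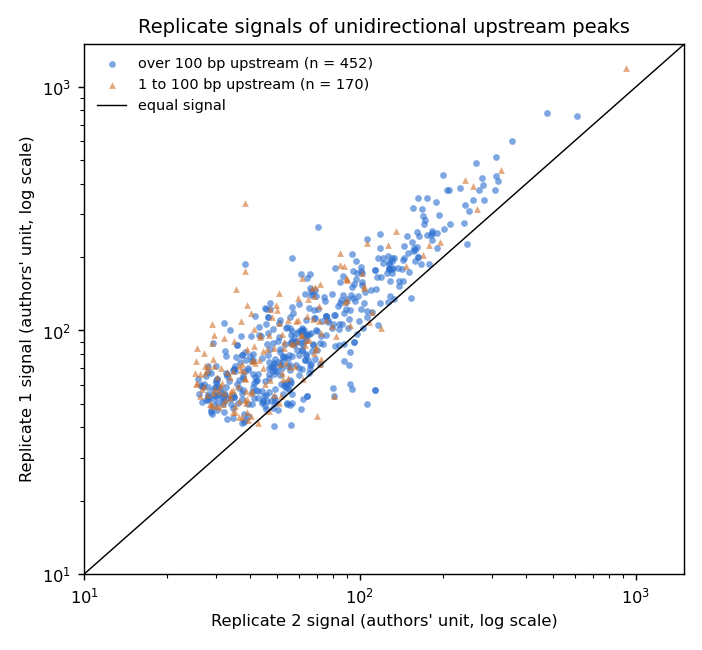
Signal in replicate 1 (y axis) against replicate 2 (x axis), both in the authors' unit on log scales, for the 622 peaks matched in both samples; triangles mark the 170 within 100 bp of the TSS and circles the 452 farther upstream. Most points (588) lie above the line of equal signal, and the triangle far above the others at low replicate 2 signal is Dll.

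Each replicate's own list held most, not all, of these peaks. The replicate 1 list overlapped 471 of the 643 (73.3%, interval 69.7 to 76.5) by at least 1 bp, against 66.1% of all conservative peaks. The replicate 2 list overlapped 416 (64.7%, 60.9 to 68.3), against 61.9%. Both did so for 365 (56.8%, 52.9 to 60.5), against 50.5%, while 106 were found in replicate 1 alone, 51 in replicate 2 alone and 121 in neither. The share in both lists rose with signal. That is no independent result, since signals and lists come from the same reads and the lists were thresholded on ranked regions. With the peaks ordered by signal and split into 4 sets of about equal size, 11.8% of the lowest set were in both lists, then 31.7%, 86.3% and, in the highest set, 97.5%. Within 100 bp of the TSS the share was 46.4%, against 61.5% at 101 to 200 bp and 63.7% at 201 to 300 bp, and it was 56.7% beyond.

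Gene groups were described by 13 lists, with the 6.13% of all genes that have a unidirectional TSS as the background. Cytoplasmic ribosomal protein genes had the highest count. Of 91 such genes 40 have a unidirectional TSS, and 10 of these held a peak (25%, interval 14.2 to 40.2), with 13 in the replicate 1 list and 12 in the replicate 2 list. The strongest was RpL23A, 116 bp upstream, with a signal of 418 (253 and 161, replicate 1 first). RpL22 followed with 268 (184 and 87.7) at 42 bp and RpL24 with 223 (164 and 61.8) at 13 bp. The other 7 were RpL17, RpS10b, RpS4, RpS27A, RpL30, RpS14b and RpL15, with signals from 189 down to 106. These 10 summits lay close to the TSS, with a median distance of 39.5 bp, in DNA with a median GC content of 46.5%. Their median ratio of replicate 1 to replicate 2 was 1.92, and RpL30 and RpL15 were not in the replicate 2 list.

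Translation factors had 3 of 30 genes with a peak (10%, 3.46 to 25.6). Besides eIF6 these were eEF1gamma, a subunit of the elongation factor that recharges eEF1A, with 400 (257 and 135) at 33 bp, and eEF1alpha1, which brings aminoacyl-tRNA to the ribosome, with 154 (128 and 39.1) at 32 bp. Single genes held a peak in 4 lists, namely MED4 among 7 Mediator genes (185), Taf4 among 8 general transcription factor genes (139, with no matched region in replicate 2), mRpL13 among 15 mitochondrial ribosomal protein genes (84.8) and Gr64e, a gustatory receptor, among 154 chemoreceptor genes (84.9). The last of these shares was 0.649% (0.115 to 3.59). The counts were 0 of 106 cuticle protein genes (interval up to 3.50%), 0 of 26 proteasome genes (up to 12.9%), 0 of 21 respiratory complex I genes (up to 15.5%), 0 of 10 tRNA synthetase genes, 0 of 4 nucleoporin genes, 0 of 3 genes of the COP9 signalosome and 0 of 1 of the chaperonin. Taf4, mRpL13 and Gr64e were in neither replicate's own list.

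The genes with these peaks were long and often had several start sites. Their median length was 6209 bp, against 2188 bp for the 9063 genes with a unidirectional TSS and no such peak. Of the 592 genes 45.9% have a single TSS, against 71.9% of the others. A gene with several TSSs offers more windows in which a summit can fall, and 11.2% (10.1 to 12.4) of genes with more than 1 TSS held a peak, against 4.01% (3.56 to 4.50) of those with 1. Among genes with a single TSS the lengths still differed, with a median of 2956 bp for the 272 with a peak and 1659 bp for 6417 with no conservative summit within 1 kb. The TSS next to the summit was the 5'-most of its gene for 444 peaks (69.0%), at a median distance of 143.5 bp, and lay inside the gene for 199, at a median of 198 bp. The median signals were 135 and 141.

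Upstream of these TSSs the next gene mostly pointed the same way. For the 421 genes with a peak at their 5'-most TSS, the upstream neighbour was in tandem for 274 (65.1%, interval 60.4 to 69.5), against 56.2% (55.2 to 57.3) of all 9032 such genes. Heads faced each other, over 1 kb apart by the choice of the peaks, for 23.8%, against 23.0%. The TSS lay inside another gene for 11.2% (8.50 to 14.5), against 20.6% (19.8 to 21.5). The gap to a tandem neighbour had a median of 561 bp, and 562 bp over all genes, and it was at most 1 kb for 42.8% of the 421 (38.1 to 47.5) and for 35.2% of all. Of the summits themselves 373 (58.0%) were intergenic, 175 (27.2%) lay in an intron of the gene itself, 23 in its 5' UTR and 53 in another protein-coding gene. A non-coding gene on the opposite strand started within 1 kb upstream at 40 peaks (6.22%, 4.60 to 8.36), against 4.46% of all unidirectional genes. These 40 are unidirectional only with respect to protein-coding genes.

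By chromosome arm, 7.78% of the genes with a unidirectional TSS on X held a peak (6.56 to 9.21). The shares were 5.94% on 2L, 6.03% on 2R, 5.92% on 3L and 5.56% on 3R (4.70 to 6.57), all below that of X. The interval of X overlaps that of each arm taken singly, and that of 3R only at its edge. This does not show that X and the autosomal arms are alike, and no share was computed over the autosomal arms together. On arm 4 the count was 1 of 66. The 138 peaks on X had a lower median signal than the 505 on the autosomal arms, 123 against 141, with a median GC content of 36.1% against 32.7%.

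The summits lay in AT-rich DNA. Within 50 bp of the summit the median GC content was 33.7% (quartiles 27.7 and 41.6%), against 42.1% in windows of the same size centred 250 bp to each side. In 452 peaks (70.3%) the summit window had less GC than the mean of its flanks, and the median difference was -8.42 percentage points. The summit median was 34.7% for the replicate 1 list and 32.7% for the replicate 2 list. A run of at least 8 A or T occurred in 73.9% of the summit windows and 50.9% of the flanks, and one of at least 12 in 37.6% and 19.0%. Runs of at least 8 were found at 78.2% of divergent, 64.7% of downstream and 67.6% of distant summits. Distant peaks had almost the same summit GC content (34.7%), divergent ones 31.7% and downstream ones 39.6%, so low GC content was also seen away from unidirectional promoters. In 4 sets of about equal size, ordered from the least GC to the most, the median signals were 168, 142, 111 and 120.

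**Figure D3:**
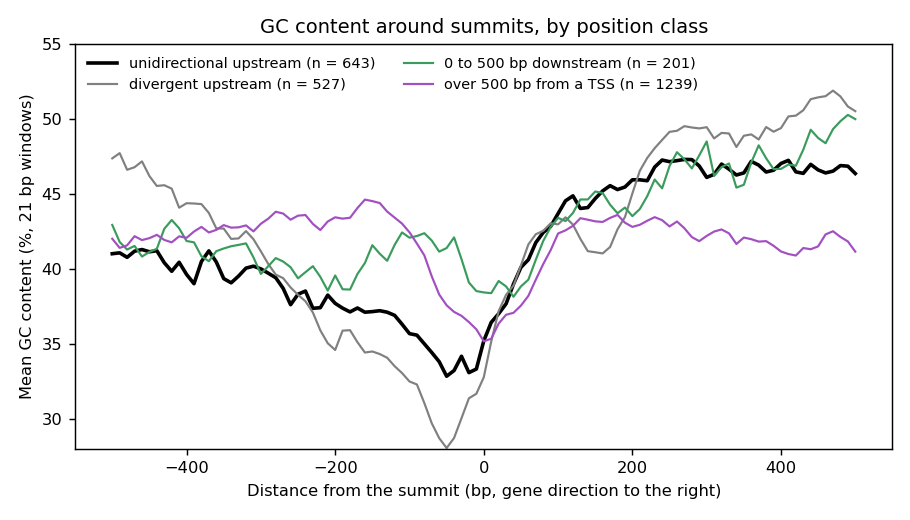
Mean GC content (y axis, percent, windows of 21 bp) by distance from the summit (x axis, bp, gene direction to the right) for 643 unidirectional upstream, 527 divergent upstream and 201 downstream peaks and for 1239 over 500 bp from a TSS. The unidirectional profile is lowest 50 bp upstream of the summit (32.8%) and higher on the side of the gene. The divergent profile is lowest at the same place (28.05%) and also higher on that side. That of distant peaks is lowest at the summit (35.2%).

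Promoters are AT-rich themselves, so the windows were set beside those of unidirectional promoters with no conservative summit within 1 kb, called unbound here (8630 genes). Each unbound gene is represented by its 5'-most unidirectional TSS, whereas the TSSs with a peak include some inside the gene. Comparisons with unbound promoters therefore also mix these kinds of TSS, unless only peaks at the 5'-most TSS are counted. Averaged over the 611 TSSs with a peak, GC content fell to 33.3% at 200 bp upstream and was 47.0% at the TSS. The unbound promoters reached their lowest value, 37.4%, at 190 bp and had 43.6% at the TSS. The contrast along the promoter was thus steeper where a peak was found. Depending on the distance of the summit the comparison came out differently. Within 100 bp the summit windows had a median of 41.6% and unbound promoters 40.6% at the same position. At 101 to 200 bp the medians were 31.7% and 36.6%, at 201 to 300 bp 31.2% and 36.6%, and beyond 300 bp 32.7% and 37.6%. A median GC content below that of unbound promoters was thus seen at summits over 100 bp from the TSS. The nearest summits had 44.6% in the replicate 1 list and 39.6% in the replicate 2 list, against 41.6% and 39.6% in unbound promoters at the corresponding positions.

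**Figure D4:**
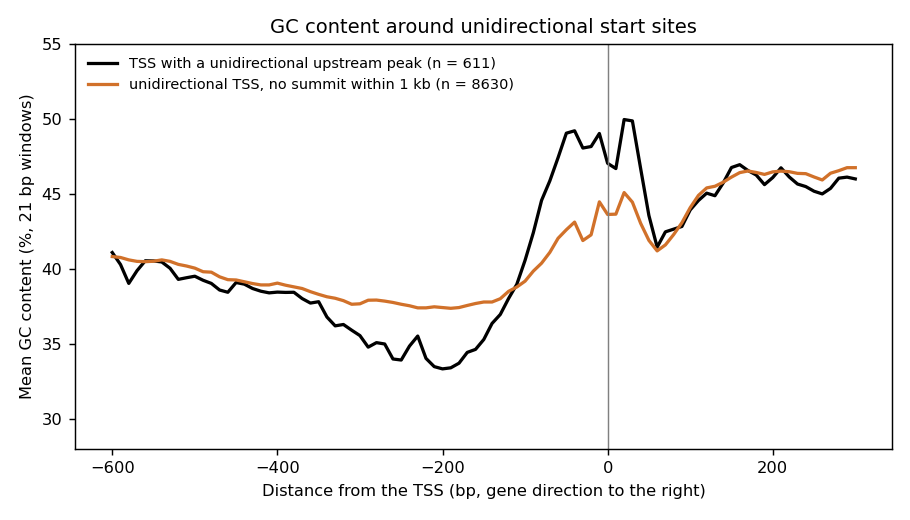
Mean GC content (y axis, percent, windows of 21 bp) by distance from the TSS (x axis, bp) for 611 TSSs with a unidirectional upstream peak and 8630 unidirectional promoters with no conservative summit within 1 kb. TSSs with a peak are lower about 200 bp upstream (33.3% against 37.4%) and higher at the TSS (47.0% against 43.6%).

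Short words at the summits mirrored this composition. Of all 2080 words of 6 bases, counted on both strands, the 20 with the largest gain at the summits over the flanks consisted of A and T alone, although only 36 of the 2080 do. The word AAAAAT or its complement, for example, was found at 37.6% of summits and in 23.1% of flanks. The first word with a C or G came at place 28. It was CGATAG, found at 62 summits (9.64%, interval 7.60 to 12.2) against 2.02% of flanks, with 9.93% in the replicate 1 list and 8.26% in the replicate 2 list. At divergent upstream summits it was found at 17.1% (14.1 to 20.5) and at distant ones at 2.18%.

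Of the 17 words that were looked for by name, TATCGATA, the DNA replication-related element, had the highest ratio. It was found at 18 summits (2.80%, 1.78 to 4.38) against 0.622% of flanks (0.156% with flanks centred 500 bp away), with 4.12% in the replicate 1 list and 2.75% in the replicate 2 list. The share at divergent summits was 6.64%. CGATA, which TATCGATA and CGATAG contain, was found at 20.1% of summits and 11.4% of flanks, and TATAAA, the TATA box, at 22.1% and 13.7%. Divergent summits had CGATA at 29.0% against 15.8% of flanks and TATAAA at 25.4% against 12.05%. Distant summits had CGATA at 11.1% against 11.0% and TATAAA at 19.45% against 11.6%. The TATAAA gain was thus not particular to unidirectional promoters. Of the homeodomain words TAATTA had 8.87% (6.91 to 11.3) against 6.45%, TAATTG 9.33% (7.32 to 11.8) against 7.23% and TAAACG 3.89% (2.65 to 5.68) against 4.51%. GAGAG, the word of GAGA factor, was less frequent at summits than in flanks, with 10.7% (8.57 to 13.4) against 18.7% (13.8% with flanks centred 500 bp away), and likewise in the replicate 1 list (11.0% against 17.9%) and the replicate 2 list (7.34% against 21.4%). It was also less frequent at divergent (7.02% against 9.39% of flanks), downstream (8.955% against 13.9%) and distant summits (11.3% against 15.98%). CAGGTAG, bound by the early activator Zelda, was at 0 of 643 summits (upper limit 0.594%) and in 0.467% of flanks. In windows of the same length centred at the median distance of 165 bp in all 9655 unidirectional promoters, TATCGATA was found in 0.704%, CGATA in 12.6%, CGATAG in 2.43%, TATAAA in 17.6%, TAATTA in 8.95%, TAATTG in 11.2% and GAGAG in 14.2%. These windows lie at 1 distance, whereas the summits spread from 1 to 500 bp, so the shares are not matched by position. By distance, TAATTA was found at 12.7% (8.86 to 17.8) of the summits 101 to 200 bp upstream, against 8.74% of unbound promoters (those with no conservative summit within 1 kb) at the same position, with 11.3% (7.50 to 16.6) in the replicate 1 list and 14.7% (9.96 to 21.0) in the replicate 2 list. For peaks at the 5'-most TSS of their gene it was 16.3% (11.1 to 23.3), against 8.60%. In the other stretches the shares were 5.59% against 5.99% within 100 bp, 6.45% against 8.81% at 201 to 300 bp and 9.45% against 8.61% beyond. The replicate 1 list gave 3.68% within 100 bp and 2.30% at 201 to 300 bp. The stretch of 101 to 200 bp is 1 of several, split after the values were seen, and its lower limit of 8.86 lies next to 8.74. Its summit windows also had less GC than the unbound ones (median 31.7% against 36.6%). Whether the share of this A/T word follows that composition was not tested. TAATTG was found at 9.86% (6.54 to 14.6) of the summits 101 to 200 bp upstream, against 11.0%. Of the remaining words, GGTATTT was found at 3.58% (2.40 to 5.31) of summits, 2.49% of flanks and 1.81% of promoters, but in the replicate 2 list at 2.06% of summits and 2.18% of flanks. Within 100 bp of the TSS it was at 5.59% (3.06 to 9.98) of summits, an interval that holds the 3.77% of unbound promoters. TCAGT had 20.2% (17.3 to 23.5) at summits, near the 19.0% of flanks and above the 15.9% of promoters, and GATAA had 22.2% (19.2 to 25.6), above the 18.7% of flanks and near the 22.6% of promoters. For CAGCTG (5.29%), CCGGAA (2.02%), GCCAT (16.2%), CACGTG (0.933%), GGTCACACT (0.622%) and GCGCATGC (0.311%) the interval at the summits held the flank share. In the replicate 1 list GGTCACACT was found at 1.50% of summits and 0.187% of flanks and CACGTG at 1.69% and 1.59%, and in the replicate 2 list CCGGAA at 3.67% and 2.41%. All promoters had GGTCACACT in 0.166% of windows centred 165 bp upstream, below its interval at the summits (0.242 to 1.59). However, 3 of its 4 summits lay within 100 bp of the TSS. There it was found at 1.68% (0.572 to 4.81) of summits, an interval that holds the 1.08% of unbound promoters. Within 100 bp of the TSS, CAGCTG was found at 10.6% (6.90 to 15.98) of summits against 6.03% of unbound promoters, with 11.0% in the replicate 1 list and 12.6% in the replicate 2 list. For peaks at the 5'-most TSS of their gene it was 9.33% (5.64 to 15.1), an interval that holds the 5.86% of unbound promoters. GCCAT was found at 23.5% (17.9 to 30.2) against 17.4% within 100 bp and at 8.66% (4.91 to 14.85) against 16.7% beyond 300 bp. These gaps did not hold in every list. Within 100 bp the replicate 1 interval (16.9 to 29.7) held its unbound share of 17.7%. The interval for 5'-most TSSs (16.7 to 30) held 17.3%, whereas that of replicate 2 (18.5 to 35.97) lay above its unbound share. Beyond 300 bp the replicate 2 interval (7.145 to 20.2) held 16.7%. Those of replicate 1 (4.91 to 16.5) and of 5'-most TSSs (3.045 to 15.45) lay below their unbound shares.

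The shares of some of these words differed with the distance of the summit from the TSS. Of the 179 summits within 100 bp, 79 held CGATA (44.1%, interval 37.1 to 51.5), where unbound promoters had it in 20.9% of windows at the same position. At 101 to 200 bp it was found at 10.8%, against 12.9% in unbound promoters, at 201 to 300 bp at 12.1% against 11.9%, and beyond at 9.45% against 11.7%. The replicate 1 list gave 41.7% within 100 bp and the replicate 2 list 45.3%. Farther out the lists differed from these values, with 6.90% and 5.81% at 201 to 300 bp and 13.3% in both beyond 300 bp, so these lists order the farther stretches differently. CGATAG was found at 46 of the 179 (25.7%, 19.9 to 32.6) against 7.13% in unbound promoters, and at 3.76%, 4.03% and 2.36% in the next 3 stretches. The last 2 of these shares turned their order in the replicate lists, with 1.15% (replicate 1) and 1.16% (replicate 2) at 201 to 300 bp and 5.10% and 4.08% beyond. All but 1 of the 18 summits with TATCGATA lay within 100 bp. There the word was found at 9.50% (6.01 to 14.7) of summits, against 3.37% of unbound promoters at the same position. Matches of CGATAG lay at a median of 51.5 bp upstream of the TSS, on the strand of the gene in 40 cases and on the other strand in 43. Where only peaks at the 5'-most TSS of their gene were counted, the shares within 100 bp were 46.0% for CGATA and 27.3% for CGATAG.

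The TATA-box word TATAAA showed the reverse. It was found at 13.4% (9.18 to 19.2) of summits within 100 bp, below the 22.7% of unbound promoters. At 101 to 200 and 201 to 300 bp it was found at 25.8% (20.4 to 32.1) and 29.8% (22.5 to 38.4). Both were above the 17.4% and 17.3% of unbound promoters. Beyond 300 bp it was 20.5% (14.4 to 28.3), an interval that holds the 16.8% of unbound promoters. Peaks at the 5'-most TSS had 14.1% there, and the replicate 1 and 2 lists 27.55% (19.7 to 37.1) and 30.6% (22.4 to 40.3). Over 100 bp upstream the summit windows had less GC than the unbound ones, with medians of 31.7% against 36.6% at 101 to 200 bp. Whether the share of this A/T word follows that composition was not tested. GAGAG was found at 7.82% (4.72 to 12.7) within 100 bp, against 15.2% in unbound promoters. The replicate 2 list gave 3.16% there, while the replicate 1 list gave 9.82% (6.13 to 15.4), an interval that holds the 15.2% of unbound promoters. GAGAG was found at 14.2% (9.16 to 21.3) beyond 300 bp, against 9.83%. The matches of TATAAA at the summits lay at a median of 189.5 bp upstream of the TSS. In the place of a TATA box, 20 to 40 bp upstream on the strand of the gene, TATAAA stood at 21 of the 611 TSSs with a peak (3.44%, 2.26 to 5.20), against 8.77% (8.19 to 9.39) of unbound promoters. The initiator core TCAGT within 5 bp of the TSS was found at 12.4% (10.1 to 15.3) against 9.25% (8.65 to 9.88), and TATCGATA anywhere in the 300 bp upstream at 6.55% (4.84 to 8.79) against 4.70% (4.28 to 5.17).

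**Figure D5:**
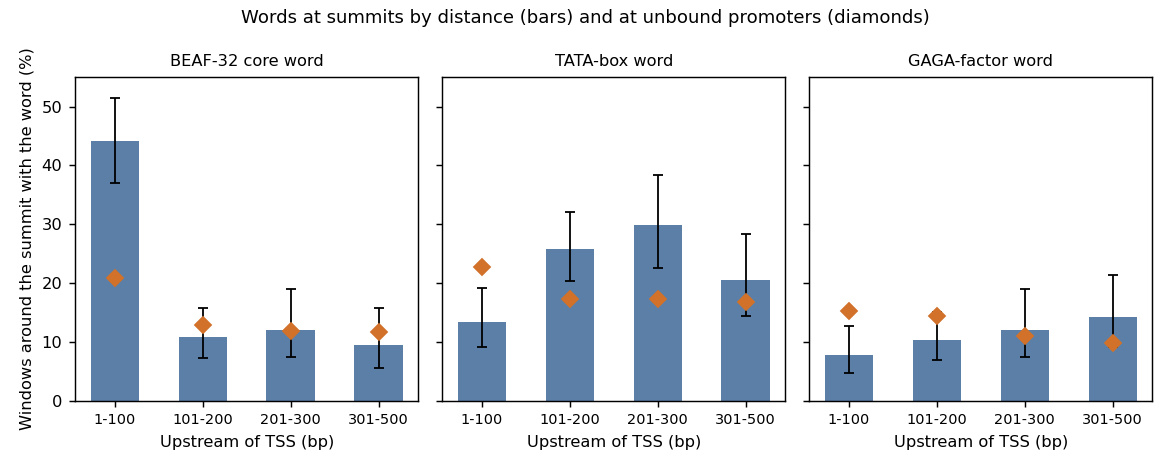
Share of windows within 50 bp of the summit (y axis, percent) that hold CGATA (left), TATAAA (middle) and GAGAG (right), by the distance of the summit upstream of the TSS (x axis). Bars are summits of unidirectional upstream peaks with 95% Wilson intervals and diamonds are unbound unidirectional promoters at the same distance. CGATA stands out within 100 bp (44.1% against 20.9%).

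The 62 peaks with CGATAG had a median signal of 115, against 139 for the others, and the 142 with TATAAA had 162 against 131. These sets also differed in position and composition. With and without CGATAG the median distances were 68 and 173 bp and the median GC contents 42.1% and 32.7%. For TATAAA they were 185.5 and 152 bp and 26.7% and 35.6%. Whether signal goes with these words apart from distance and GC content was not tested. For TATCGATA the median signals with and without the word were close, 137.6 and 137.2, as for TCAGT with 138 and 136.5. Within 100 bp of the TSS the 138 summits with at least the median GC content had a median signal of 106 and a median replicate ratio of 1.78, while the 41 with less GC had 146 and 1.43. Over 100 bp upstream the corresponding values were 124 and 1.52 for 193 summits and 156 and 1.48 for 271. Of these 4 sets the summits next to the TSS with the higher GC content had the lowest median signal and the highest median ratio.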

How the data were processed

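Peaks from chromatin immunoprecipitation of CG11085-eGFP in 2 samples were analysed. The authors deposited thresholded and ranked IDR peak files in dm6 coordinates, per the labels. The signal of each peak, on a scale not stated, its IDR score (a whole number up to 1000) and the −log10 of the global IDR in the ranked file are values the authors deposited. No aligner or peak caller is named here, since the labels and file headers give none. The lowest score in the conservative list was 830, a global IDR of 0.01, and depth is unknown because the files give no read totals.

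Each summit was assigned to the nearest protein-coding TSS of Ensembl release 115. Ties went to a TSS downstream of the summit. Replicate signals were read from the regions each sample contributed to the comparison. Words were counted on either strand in windows reaching 50 bp from the summit and in flanks centred 250 bp to each side, on the RefSeq sequence of the same assembly. Flank shares are means over both flanks. Intervals are 95% Wilson intervals and cover counting error over peaks only. With 1 group of 2 samples no test between groups was possible and no p-value was computed. Code was tested on simulated data and run with Python 3.11.15, pandas 2.3.3 and SciPy 1.17.1.

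The genes named are those of the 20 strongest peaks, the 5 highest and 5 lowest replicate ratios, up to 3 genes per list by signal (all ribosomal protein genes were added), up to 5 with several peaks at 1 TSS (fok was added after its values were seen), the peaks at the edges of the selection, and those whose windows are printed. The window of 1 gene is not reported here. The peaks and lists were chosen with earlier results of these data known, and GC content, 6-base words, A/T runs, the split by distance and gene length were added after their values were seen. Alternatives were a global IDR of 0.001, the larger list, each replicate's list, other windows and distances, the 5'-most TSS only, a reciprocal overlap, and removal of peaks that share a replicate region.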

Additional observations from a re-analysis of the deposited data

How the results depend on the processing

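These values carry no test, so no call could be lost. Against 643 peaks, the count was 468 with summits up to 250 bp upstream, 499 with the 5'-most TSS only, 540 and 774 with an opposite TSS sought within 2000 and 500 bp, 710 in the larger list and 609 without shared replicate regions. At a global IDR of 0.001 or below, 344 peaks were left, with a median signal of 202, 93.6% in both replicate lists, 3.27% of genes with a peak, a summit GC content of 31.7% and a tandem neighbour in 63.5%. With the larger list 51.4% of its peaks, and with a reciprocal overlap of at least 50% 45.3%, were in both replicate lists. With the 5'-most TSS of each gene only, the median distance was 144 bp and 5.10% of genes held a peak. With summits up to 250 bp upstream these were 129.5 bp and 4.68%, and TATCGATA was found at 3.85% of summits. Windows of 25 and 100 bp to each side gave 1.56% and 5.13% for TATCGATA, and the wider one a GC content of 35.8%. Leaving out a replicate, that is using the other's own list, gave 436 to 534 peaks, median signals from 67.5 to 96.1, on unpooled scales, shares of genes from 4.35 to 5.22% and shares of TATCGATA from 2.75 to 4.12%. Flanks centred 500 bp away gave flank shares of 0.156% for TATCGATA, 13.3% for CGATA, 10.3% for TATAAA and 13.8% for GAGAG, each outside the interval at 250 bp. CGATA within 100 bp of the TSS stayed between 41.3 and 46.4% in 6 alternatives chosen after seeing the data. No paired analysis was possible because there is 1 group. Neither a control library nor read totals were analysed here.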
